A study of Mus musculus with 2207 samples.

Results

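A set of 8 immune receptor and signalling genes was followed in single cortical nuclei: *Cd6*, *Blnk*, *Dpp4*, *Inpp5d*, *Syk*, *P2rx7*, *Cd200r1* and *Tnfrsf23*. They are 8 of the 52636 genes in the RPKM tables and were chosen by their RPKM values in 96-well neurons: they stand on the list of genes that the study called higher in *Ehmt1* Δ/+ than in WT there, so that contrast is described here without a test. All 8 symbols matched 1 row in both tables.

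The study asked how far GLP, the product of *Ehmt1*, given back after birth can undo the changes in mice with 1 functional *Ehmt1* allele, a model of Kleefstra syndrome, and compared gene expression in their cortical nuclei. Nuclei were read by RamDA-seq, a full-length total RNA method that also reads unspliced RNA. The 2207 nuclei came in 6 pools, each from 3 male C57BL/6 mice at 14 weeks of age, and since nuclei are not assigned to single mice in the labels, a pool counts as 1 sample. The 96-well plates held WT and *Ehmt1* Δ/+ (730 nuclei in all). The 384-well plates held 4 groups of similar size (1477 nuclei in all), namely WT, Δ/+, iTg and Δ/+; iTg, all of which carry a silent FLAG-*Ehmt1* transgene at Rosa26. By the genotype labels only iTg and Δ/+; iTg also carry CamKII-CreER, which opens the transgene in forebrain neurons after tamoxifen; the study's text words the driver as common to the 4 groups. Per the labels, all 6 groups had received tamoxifen (100 mg/kg, given 2 times) at 3 weeks of age. By the deposited cell types 1664 nuclei are neurons and 397 are oligodendrocytes, and each pool holds 16 to 36 microglia. *Snap25* was above 0 in at least 99.6% of the neurons of every pool.

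*Ehmt1* RNA ran against the genotype labels. Mean RPKM in 96-well neurons was 18.7 for WT and 31.2 for the pool labelled Δ/+, and it was 19.5, 31.7, 20.7 and 33.9 in the 384-well pools WT, Δ/+, iTg and Δ/+; iTg. A sum over the whole gene does not single out the deleted exons, and directions given here rest on the labels ("pools labelled Δ/+"). Median depth in neurons was 323273 to 397880 reads per nucleus in every pool. Microglia and oligodendrocytes had 441701 to 510640 reads in the 96-well plates but only 39940 to 54877 in the 384-well plates.

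Lymphocytes and microglia pass signals from surface receptors through tyrosine kinases and lipid phosphatases. *Syk* encodes the kinase that immune receptors recruit, *Blnk* the adaptor that it phosphorylates in B cells, and *Inpp5d* the lipid phosphatase SHIP1 that limits phosphoinositide signals. *Cd6* encodes a T cell surface receptor for ALCAM, and *Cd200r1* an inhibitory receptor of myeloid cells whose ligand CD200 is carried by neurons. *Dpp4* encodes a surface peptidase that binds adenosine deaminase, *P2rx7* a cation channel opened by extracellular ATP and linked to inflammasome activation, and *Tnfrsf23* a decoy receptor for TRAIL. In the brain, *Inpp5d*, *Syk*, *Blnk* and *P2rx7* are usually read as microglial genes.

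On mm10 (GENCODE M21) the genes lie on 7 chromosomes and share no locus. *Inpp5d* is at chromosome 1, 87620312-87720507 (plus strand), *Dpp4* at chromosome 2, 62330073-62412231 (minus), *P2rx7* at chromosome 5, 122643911-122691432 (plus), and *Tnfrsf23* at chromosome 7, 143665809-143685872 (minus). *Syk* is at chromosome 13, 52583173-52648792 (plus), and *Cd200r1* at chromosome 16, 44765736-44794978 (plus). *Cd6* (10789341-10830058) and *Blnk* (40928927-40994535) are both on the minus strand of chromosome 19. *Dpp4* overlaps the antisense RNA *Gm13561* and *Tnfrsf23* overlaps the antisense RNA *E230032D23Rik*, and with random-primed reads that carry no strand their reads cannot be told apart. Only 52.9% of nuclei with *Tnfrsf23* held a whole number of its reads, against 84.1 to 100% for the other 7 genes, so its level is uncertain with its close copies *Tnfrsf22* and *Tnfrsf26*. *Cd200r1* (89.3% whole) is uncertain with its copy *Cd200r4*. For *Cd6* and *Cd200r1* the gene length was itself taken from the steps of the values, so their whole shares partly follow from that choice. Of the other 7 genes *P2rx7* had the lowest share (84.1%).

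RefSeq promoters (GRCm38.p6, 250 bases before to 50 after a start) were at hand for 6 of the 8 genes, and *P2rx7* and *Syk* have a pair of starts each. A set of 4 motifs was searched on both strands: GAGGAAGT, a sequence read by the myeloid and lymphoid factor PU.1; AGGTCA, bound by nuclear receptors; TGANTCA, the AP-1 site; and the interferon response element, here GAAA, any pair of bases and GAAA. Of 32851 mouse promoters, 3.20% hold GAGGAAGT, 16.3% AGGTCA, 7.81% TGANTCA and 3.44% the interferon element. The 4 windows shown were picked from those that hold a match, with matches in capitals.
*Inpp5d* (chr1:87620062-87620361, plus strand): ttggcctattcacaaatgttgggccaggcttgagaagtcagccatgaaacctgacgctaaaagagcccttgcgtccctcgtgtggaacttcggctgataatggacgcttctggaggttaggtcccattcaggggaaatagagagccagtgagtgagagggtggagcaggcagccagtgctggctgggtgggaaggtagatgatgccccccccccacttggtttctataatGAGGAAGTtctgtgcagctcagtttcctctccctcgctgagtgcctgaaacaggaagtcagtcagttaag
*P2rx7*, the inner start (chr5:122650133-122650432, plus strand): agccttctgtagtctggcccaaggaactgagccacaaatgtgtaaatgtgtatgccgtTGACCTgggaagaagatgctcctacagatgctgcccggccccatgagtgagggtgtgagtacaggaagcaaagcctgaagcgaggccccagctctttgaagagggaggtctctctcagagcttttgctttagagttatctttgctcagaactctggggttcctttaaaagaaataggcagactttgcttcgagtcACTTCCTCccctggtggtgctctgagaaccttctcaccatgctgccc
*Blnk* (chr19:40994172-40994471, minus strand): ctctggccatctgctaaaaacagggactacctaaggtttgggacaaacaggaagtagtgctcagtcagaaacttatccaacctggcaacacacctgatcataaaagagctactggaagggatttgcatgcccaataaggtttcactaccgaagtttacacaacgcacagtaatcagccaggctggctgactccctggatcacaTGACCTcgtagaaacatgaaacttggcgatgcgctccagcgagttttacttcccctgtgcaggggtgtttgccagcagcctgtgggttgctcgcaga
*Dpp4* (chr2:62412182-62412481, minus strand): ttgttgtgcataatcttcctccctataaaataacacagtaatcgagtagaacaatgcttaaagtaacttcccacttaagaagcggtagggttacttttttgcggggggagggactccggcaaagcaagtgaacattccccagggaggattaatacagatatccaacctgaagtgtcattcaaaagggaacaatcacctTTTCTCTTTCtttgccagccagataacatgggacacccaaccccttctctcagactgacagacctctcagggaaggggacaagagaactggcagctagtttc
GAGGAAGT, on one strand or the other, stands in *Inpp5d* and in the inner *P2rx7* window, both of which are read at high level in microglia. It is absent from the windows of *Blnk* and *Syk*, which are also read at high level there. AGGTCA stands, as its reverse complement, in *Blnk* and in the inner *P2rx7* window, and the interferon element in *Dpp4*. The outer *P2rx7* window held 1 TGANTCA, and both *Syk* windows and *Tnfrsf23* held none of the 4. CG pairs numbered 31 in the outer *Syk* window and 2 to 9 in the other 7, against a median of 7 over all promoters. A match describes letters in a window, not binding.

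The 8 genes were first compared between cell types. In every pool *Inpp5d*, *Syk*, *P2rx7* and *Blnk* stood far higher in microglia than in neurons. *Inpp5d* averaged 221.9 RPKM over the 6 microglia pools and was above 0 in 100% of microglia, *Syk* averaged 53.4 RPKM (99.3%), *P2rx7* 67.9 RPKM (94.5%) and *Blnk* 45.7 RPKM (95.9%). *Cd200r1* was above 0 in 52 microglia (35.6%, interval 27.9 to 44%) at 7.59 RPKM and *Tnfrsf23* in 16 (11%, 6.4 to 17.2%) at 0.987 RPKM. *Cd6* and *Dpp4* were read in 0 microglia of any pool (interval 0 to 2.49%). In the 68 microglia of the 96-well plates, which were read more deeply than the neurons, the interval for a count of 0 ends at 5.28%.

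**Figure D1:**
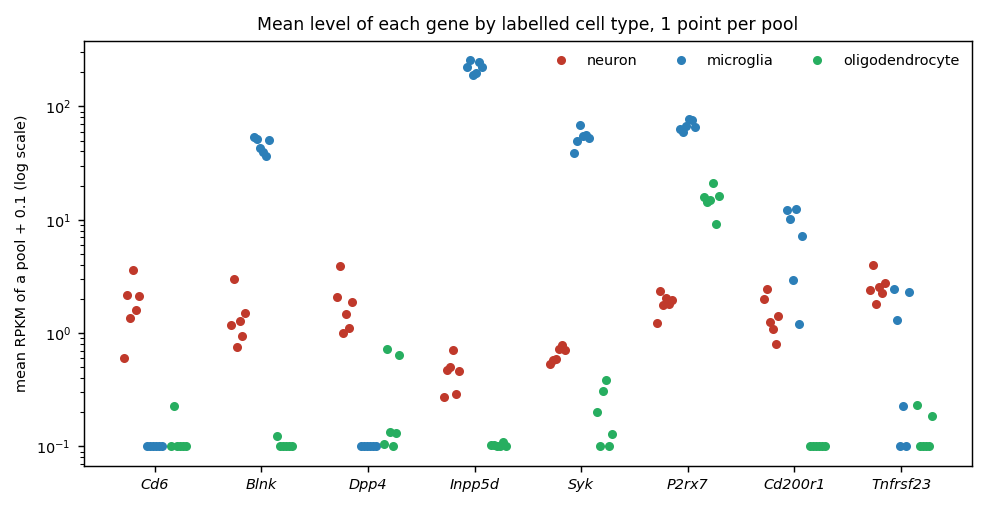
Mean RPKM plus 0.1 (log scale) of each gene in neurons, microglia and oligodendrocytes, 1 point per pool, 6 pools per cell type. Microglia stand above neurons for *Blnk*, *Inpp5d*, *Syk* and *P2rx7*, while *Cd6* and *Dpp4* sit at the added 0.1 in all 6 microglia pools and above it in all 6 neuron pools.

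Oligodendrocytes held *P2rx7* in 61.2% of 397 nuclei at 15.1 RPKM, above the neurons of every pool. *Cd200r1* was read in 0 of 397, *Dpp4* in 16 of 397, and the remaining genes in at most 1.62% of oligodendrocytes on average over pools. The 16 nuclei with *Dpp4* were not spread evenly: the share was 9.86% in the 96-well Δ/+ pool and 8.96% in Δ/+; iTg, against 0 to 1.45% in the other 4, and the 384-well oligodendrocytes were read less deeply.

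Neurons with each gene were then counted in every pool; values are given in the order WT and Δ/+ of the 96-well plates, then WT, Δ/+, iTg and Δ/+; iTg of the 384-well plates. Intervals here and in the plots are exact Clopper-Pearson intervals at 95% and cover counting error only.

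Of the receptors, *Cd6* was above 0 in 11.1, 23, 11.9, 27.5, 13.1 and 15% of neurons, and its mean level was 0.499, 2.06, 1.25, 3.48, 1.48 and 2.05 RPKM. Among the 384-well pools the share was largest in Δ/+ (interval 22.5 to 32.8%), and WT, iTg and Δ/+; iTg lay below it. *Cd200r1* was above 0 in 14.2, 19.2, 9.47, 12.7, 8.0 and 15.7% of neurons, at 1.92, 2.33, 1.15, 0.991, 0.699 and 1.3 RPKM. In the 384-well plates the Δ/+ pool had the larger share but the lower mean beside WT. *Tnfrsf23* was above 0 in 44.7, 49.8, 35.4, 45.4, 37.1 and 38.9% of neurons, at 2.30, 3.87, 1.70, 2.45, 2.14 and 2.69 RPKM.

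*P2rx7*, the ATP-gated channel, was above 0 in 23.7, 29.8, 27, 31.4, 20.4 and 23.9% of neurons, at 1.12, 2.26, 1.67, 1.96, 1.69 and 1.87 RPKM. Each pool labelled Δ/+ stood above the +/+ pool beside it, within overlapping intervals. *Dpp4*, the peptidase, was the most widely read in the 96-well plates. It was above 0 in 60.9, 77.4, 37.9, 39.9, 33.8 and 52.5% of neurons, at 1.97, 3.82, 0.895, 1.39, 1.0 and 1.78 RPKM. The largest share in the 384-well plates was in Δ/+; iTg (46.5 to 58.5%). With all neurons reduced to the same number of reads, the 384-well shares of WT and Δ/+ were 32.6% and 31.4%.

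Of the intracellular genes, *Blnk* was above 0 in 20.6, 32.8, 15.1, 21.6, 17.1 and 21.1% of neurons, at 1.08, 2.91, 0.647, 1.18, 0.850 and 1.42 RPKM. *Inpp5d* was above 0 in 12.6, 24.5, 20.7, 22.5, 12.4 and 13.9%, at 0.171, 0.371, 0.398, 0.612, 0.188 and 0.361 RPKM. Its 384-well pools without Cre were above both pools with Cre. *Syk* was above 0 in 10.7, 15.8, 11.2, 10.8, 14.2 and 13.2% of neurons, at 0.431, 0.482, 0.494, 0.624, 0.690 and 0.610 RPKM, and its intervals overlapped among all 6 pools.

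**Figure D2:**
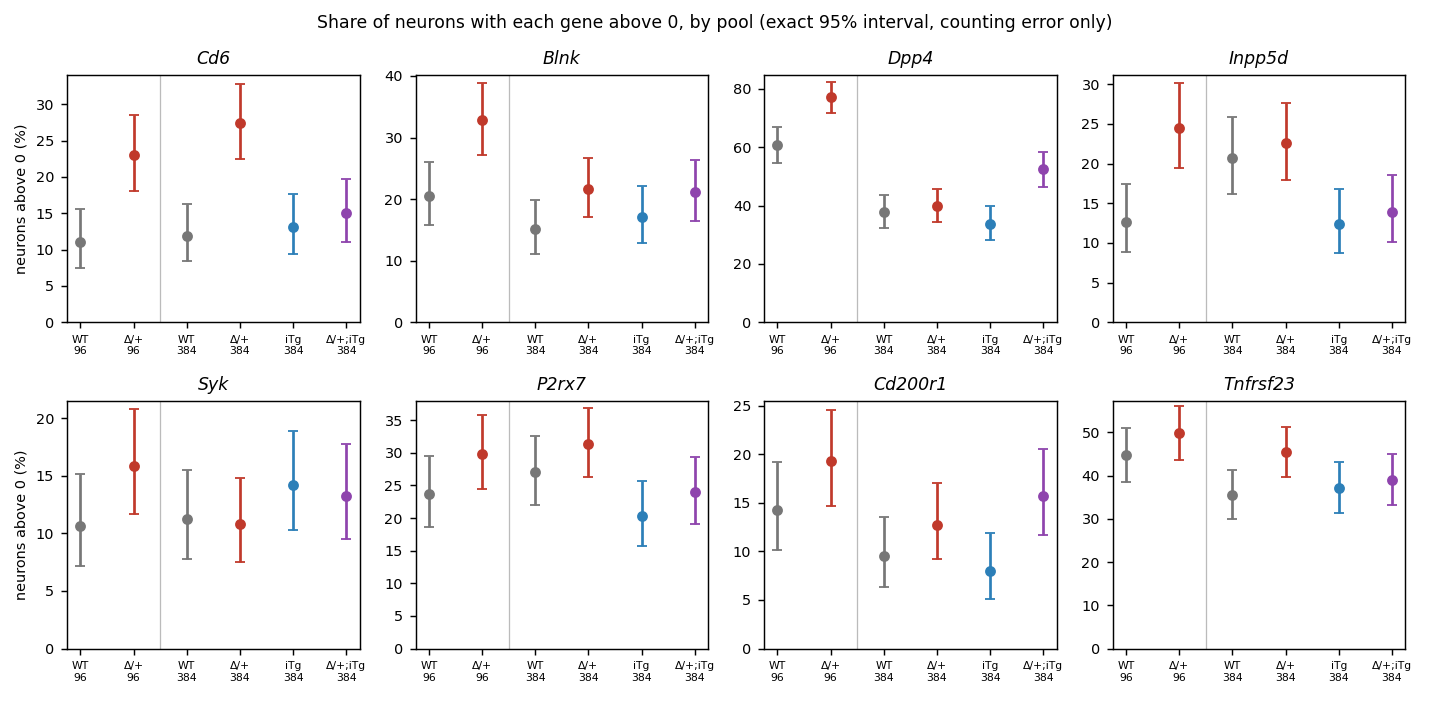
Percent of neurons with each gene above 0 in the 6 pools, with exact 95% intervals for counting error; the grey line parts the 96-well from the 384-well plates and each panel starts at 0 on its own scale. *Cd6* stands at 23% and 27.5% in the pools labelled Δ/+ without Cre and between 11.1% and 15% in the other 4.

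At least 1 of the 8 genes was read in 90.1, 93.2, 80.7, 85, 75.6 and 83.2% of neurons, and no neuron held all 8. The genes marked partly different neurons. *Syk* was read in 6.3% of neurons with *Cd200r1* and 13.5% of those without, as means over pools, and its share was not higher with *Cd200r1* in any of the 6 pools. *Dpp4* was read in 71.3% of neurons with *Syk* and 47.4% of those without, and *Blnk* in 33.8% of neurons with *Cd6* and 19.1% of those without, both higher in 6 of 6 pools. These are descriptions over nuclei of the same 6 pools, and both classes of neuron entered them. Inhibitory neurons (*Gad1* above *Slc17a7*) held *Cd6* in 1.20% and *Syk* in 3.00%, so nearly all of them are counted as without. Over all pools *Dpp4* was above 0 in 24.6% of inhibitory and 56.3% of excitatory neurons (*Slc17a7* above *Gad1*), and *Blnk* in 2.10% and 26.2%. Reads per nucleus ran from 43592 to 1332270 in the neurons of the 384-well plates. The part of class and of depth in these shares was not tested, and pairs of other genes were not counted beside them.

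Microglial RNA was measured in the same neurons. The 10 microglia markers summed to between 6.73 and 11.9 RPKM in the neurons of a pool and between 2752 and 4499 RPKM in its microglia. *Csf1r* was above 0 in most neurons (66.5 to 79.4%), while *Ctss*, *C1qa*, *Tmem119* and *Ptprc* were above 0 in at most 3.2% of any pool. At the ratio of *Inpp5d* to 7 stricter markers (*Ctss*, *Cx3cr1*, *C1qa*, *C1qb*, *C1qc*, *Tmem119* and *Ptprc*) found in microglia, these markers in neurons correspond to 0.0770, 0.0934, 0.0347, 0.162, 0.0113 and 0.0335 RPKM of *Inpp5d*, below the level measured in the neurons of each pool. The 7 were chosen after the data had been seen and leave out *Csf1r*. With all 10 markers in their place, the level so obtained would not lie below the measured *Inpp5d* in any pool. The comparison therefore depends on the list. With the 7 markers the calculation gave at most 0.0636 RPKM for *P2rx7*, 0.0453 for *Syk* and 0.0328 for *Blnk* in any pool. In the 384-well Δ/+ pool, however, the 7 markers summed to 4.77 RPKM in neurons with *Inpp5d* and 0.121 RPKM in those without, to 9.51 and 0.160 RPKM with and without *Syk*, to 4.80 and 0.170 RPKM for *Blnk* and to 3.56 and 0.0776 RPKM for *P2rx7*. Most of this signal thus lay in the few neurons that held all of these genes. Elsewhere the order varied. With and without *Inpp5d* the sums were 0.485 and 0.820 RPKM in 96-well WT and 0.378 and 0.704 in 96-well Δ/+. They were 0.799 and 0.159 RPKM in 384-well WT, 0.0225 and 0.0812 in iTg, and 0.284 and 0.265 in Δ/+; iTg. Of the lymphocyte markers, *Cd79b* was at 0 in all neurons but *Cd79a* was above 0 in 9.45 to 13.2% and *Ms4a1* in 7.51 to 9.80% of the neurons of a pool. *Cd3e* and *Cd2* were above 0 in at most 0.73% of the neurons of a pool, but *Lck* (14.5 to 22.9%), *Zap70* (13.6 to 22.5%) and *Cd3g* (29.3 to 90.5%) were read more widely.

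Of the 8 genes, 7 were higher in excitatory neurons (*Slc17a7* above *Gad1*) than in inhibitory neurons (*Gad1* above *Slc17a7*). The log2 difference of mean RPKM + 0.1 between the classes of a pool was tested over the 6 pools by limma, with Benjamini-Hochberg adjustment over 31598 genes. Of all genes, 17.2% were called higher in excitatory neurons and 16.9% lower. Shares were not tested. The test was added after these data had been seen, and the 96-well pools, whose values chose the genes, entered it. Excitatory neurons made up 75.5% of neurons in 96-well WT and 83% in 96-well Δ/+. The part of that choice in the count of 7 was not tested. Over all pools *Cd200r1* was above 0 in 16.5% of 1324 excitatory neurons and in 1 inhibitory neuron (0.30%), with adjusted p = 0.000229 for its level. *Cd6* was above 0 in 21.2% and in 4 inhibitory neurons (1.20%), with adjusted p = 0.000761 for its level. *Blnk* was above 0 in 26.2% and in 7 (2.10%), with adjusted p = 0.000249 for its level. *Syk* was above 0 in 15% of excitatory neurons and in 10 inhibitory neurons (3.00%), with adjusted p = 0.000609 for its level. For these 4 the fitted log2 difference, between 2.26 and 3.92, depends on the added 0.1, since the inhibitory level is near 0.

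*Dpp4* and *Tnfrsf23* were read in both classes. *Dpp4* averaged 56.8% of excitatory and 25.1% of inhibitory neurons over the pools (log2 difference 2.08, SE 0.37, adjusted p = 0.00591), and *Tnfrsf23* averaged 48.2% and 16.3% (2.56, SE 0.40, adjusted p = 0.00325). *Inpp5d* averaged 20.2% and 8.56% (0.82, SE 0.24, adjusted p = 0.0378), a call that was lost in 7 of 8 alternatives. *P2rx7* differed from the rest: its shares were 26% and 26.4%, and its log2 difference of -0.27 (SE 0.20, adjusted p = 0.362) did not pass the test.

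**Figure D3:**
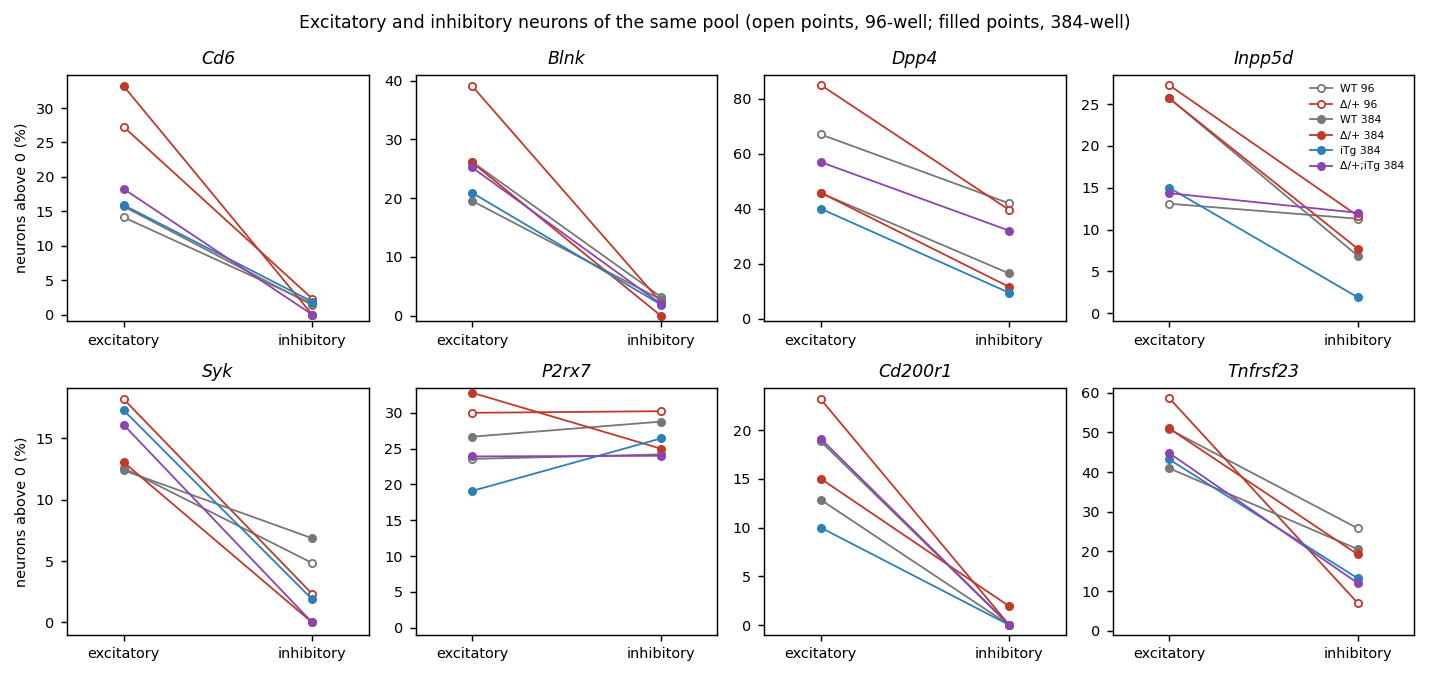
Percent of excitatory and inhibitory neurons with each gene above 0, 1 point per pool (6 pools). *Cd200r1* lies at 0 in 5 of 6 inhibitory pools, *Dpp4* and *Tnfrsf23* are read in both classes, and *P2rx7* lies in the same range in both.

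Among inhibitory neurons *P2rx7* varied by type. It was above 0 in 1 of 50 neurons with *Vip*, a marker of disinhibitory interneurons, and in 87 without it (30.7%). Only 3 to 14 neurons per pool held *Vip*. By limma the level of *P2rx7* was lower with *Vip* (log2 difference -4.45, SE 0.33, adjusted p = 0.00473), a size that depends on the added 0.1. The median over all genes was -0.30, and 2.19% of genes were called lower with *Vip* and 0.766% higher. *P2rx7* was above 0 in 50 neurons with *Pvalb*, a marker of fast-spiking cells (40.7%), and 38 without (18.1%). That share was larger in 6 of 6 pools, but the level did not pass the test (log2 difference 0.96, SE 0.43, adjusted p = 0.282). No other call was made on the 8 genes for *Vip*, *Pvalb*, *Sst* or *Lamp5*, where 0.937% of genes were called higher and 0.81% lower with *Pvalb*, 0.13% and 0.0253% with *Sst*, and 0.165% and 0.0411% with *Lamp5*.

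Within excitatory neurons the genes differed by the layer marker that a neuron held. *Cd200r1*, *P2rx7* and *Tnfrsf23* were higher in neurons with *Rorb*, a marker of layer 4/5a, while *Syk*, *Blnk* and *Dpp4* were lower there. Each marker was tested as the classes were, over 6 pools and 31598 genes, and 6.55% of genes were called higher and 6.77% lower with *Rorb*. The marker groups overlap and share nuclei, so the markers are not independent of one another.

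*Cd200r1* was read in 28, 37.7, 23.3, 25.7, 20.7 and 33.7% of neurons with *Rorb* and in 7.14, 9.65, 2.80, 6.43, 3.01 and 7.75% of those without, in the order of pools given above. The groups did not overlap, and the log2 difference was 3.00 (SE 0.29, adjusted p = 0.00245). *P2rx7* was read in 29, 43.4, 36.9, 41.6, 31 and 33.7% with *Rorb* and 16.7, 17.5, 16.8, 25.7, 11.3 and 16.3% without (1.23, SE 0.23, adjusted p = 0.0180). *Tnfrsf23* averaged 55.7% and 42.1% (0.74, SE 0.14, adjusted p = 0.0167); both calls were lost in 1 of 8 alternatives. *Syk* averaged 8.23% with *Rorb* and 20.7% without (-1.69, SE 0.10, adjusted p = 0.0009), and *Dpp4* was also lower with *Rorb* (-0.69, SE 0.09, adjusted p = 0.00491). *Blnk* was lower too (-0.76, SE 0.16, adjusted p = 0.0246), a call lost in 3 of 8 alternatives.

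With *Cux2*, a marker of the upper layers, 5.61% of genes were called higher and 3.99% lower. *Cd200r1* was higher (log2 difference 2.19, SE 0.13, adjusted p = 0.00157), and *Blnk*, with mean shares of 19.1% and 38.7%, was lower (-1.65, SE 0.19, adjusted p = 0.00605), as was *Dpp4* (-0.62, SE 0.09, adjusted p = 0.00975). *P2rx7* was also called higher (0.84, SE 0.19, adjusted p = 0.0415), but 7 of 8 alternatives lost it.

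The deep layer markers gave the opposite order for *Cd200r1*. It was lower in neurons with *Fezf2* (-2.03, SE 0.23, adjusted p = 0.00218, where 8.53% of genes were called lower), with *Foxp2* (-1.92, SE 0.32, adjusted p = 0.0106, 8.73%) and with *Bcl11b* (-2.27, SE 0.46, adjusted p = 0.0180, 8.49%, lost in 4 of 8 alternatives). *P2rx7* was lower with *Bcl11b* (-1.27, SE 0.22, adjusted p = 0.00970), and *Tnfrsf23* too (-0.81, SE 0.21, adjusted p = 0.0391), though 5 of 8 alternatives lost the latter. None of the 8 was called higher with *Bcl11b* or *Fezf2*, where 9.68% and 7.77% of genes were. The level of *Syk* did not pass the test for either marker, with log2 differences of 0.58 (SE 0.22, adjusted p = 0.117) and 0.57 (SE 0.20, adjusted p = 0.117). Its share, which was not tested, was larger in 6 of 6 pools for both markers and did not overlap. The mean shares were 20.04% with and 8.77% without *Bcl11b*, and 20.9% with and 9.91% without *Fezf2*. With *Fezf2* the shares of *Blnk* (36.2% against 17.7%) and *Dpp4* (65.9% against 49.5%) were also larger in 6 of 6 pools, at adjusted p = 0.104 and 0.160 for the level.

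*Foxp2*, a marker of layer 6, went with *Dpp4* and *Syk*, where 5.99% of genes were called higher. *Dpp4* was read in 72.4, 91.8, 61.1, 73.2, 50.8 and 64.2% of neurons with *Foxp2* and averaged 52% without (0.74, SE 0.09, adjusted p = 0.00349). *Syk* was read in 22.4, 27.4, 22.2, 21.1, 34.4 and 31.3% with *Foxp2* and 8.27, 13.6, 8.97, 9.89, 10.7 and 9.82% without. The *Syk* shares did not overlap, but the call on its level (1.18, SE 0.31, adjusted p = 0.0499) was lost in 6 of 8 alternatives. *Syk* was also called lower with *Etv1*, a layer 5 marker (-1.53, SE 0.28, adjusted p = 0.0463, where 1.13% of genes were called lower and 1.87% higher), which 7 of 8 alternatives lost. With *Tle4*, where 0.864% of genes were called higher and 0.25% lower, none of the 8 was called. *Cd6* and *Inpp5d* were called for none of the 7 layer markers.

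**Figure D4:**
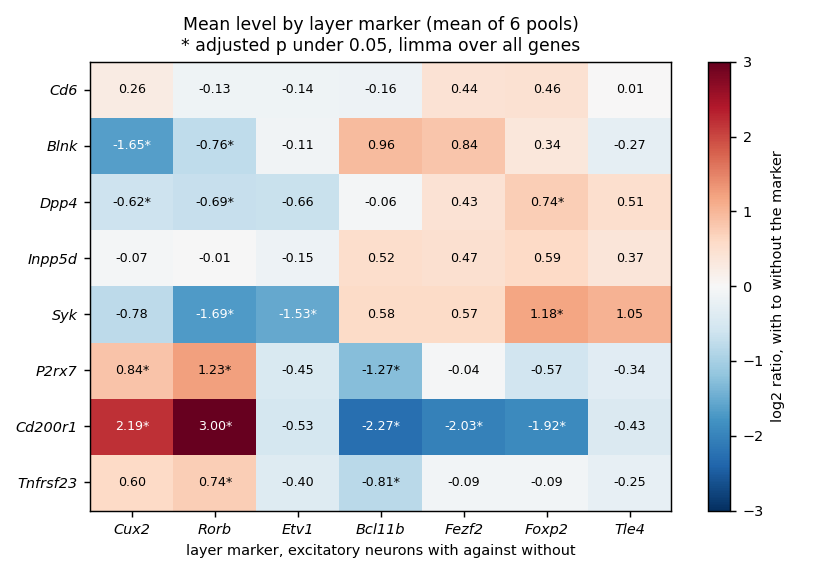
Log2 difference of mean RPKM plus 0.1 between excitatory neurons with and without each of 7 layer markers, averaged over 6 pools, for the 8 genes. *Cd200r1* runs from 3.00 with *Rorb* to -2.27 with *Bcl11b*, and *Syk* from -1.69 with *Rorb* to 1.18 with *Foxp2*.

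The contrast of genotypes that chose the genes was then set beside the 384-well plates. In the 96-well neurons the log2 ratio of Δ/+ to WT on the mean RPKM + 0.1 scale was 1.85 for *Cd6*, 1.35 for *Blnk*, 0.95 for *P2rx7*, 0.92 for *Dpp4*, 0.80 for *Inpp5d*, 0.72 for *Tnfrsf23*, 0.27 for *Cd200r1* and 0.13 for *Syk*. *Cd6* and *Blnk* were at least 2-fold higher, as were 1.42% of the 32416 genes compared, and none was 2-fold lower, against 2.12%. All 8 ratios were above 0, against 46.6% of genes. As this contrast chose the genes, nothing is read from these counts. In the 384-well plates each pool bears a single code in the titles of its nuclei. WT has a code of its own there, so that code and group cannot be told apart for WT, while Δ/+, iTg and Δ/+; iTg share another. The labels do not say whether pools with the same code shared a plate, so a part of plate in any of these contrasts cannot be told apart from group.

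In the 384-well plates, from which the study's list was not drawn although the genes were picked with earlier results of both formats known, the log2 ratio of Δ/+ to WT was 1.41 for *Cd6*, 0.77 for *Blnk*, 0.58 for *Dpp4*, 0.52 for *Inpp5d*, 0.50 for *Tnfrsf23*, 0.28 for *Syk*, 0.22 for *P2rx7* and -0.20 for *Cd200r1*. Only *Cd6* was at least 2-fold higher, against 1.36% of the 31018 genes compared, none was 2-fold lower, against 1.8%, and 7 of 8 ratios were above 0 against 44.4% of genes. The median ratio was 0.51 for the 8 genes and -0.03 for all genes. For Δ/+; iTg against iTg, a pair that shares no pool with the former, the ratios were 0.81 for *Cd200r1*, 0.77 for *Dpp4*, 0.68 for *Blnk* and *Inpp5d*, 0.44 for *Cd6*, 0.32 for *Tnfrsf23*, 0.14 for *P2rx7* and -0.15 for *Syk*. None was 2-fold higher or lower, against 10.9% and 1.22% of all genes, and 7 were above 0 against 66.4% of genes. The median of all genes in this pair was 0.20, and that of the 8 genes was 0.56.

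The share of excitatory neurons was 75.5, 83, 73.7, 82.7, 80 and 82.1% of neurons, larger in each Δ/+ pool than in the +/+ pool beside it. In excitatory neurons alone the ratio of Δ/+ to WT in the 384-well plates was 1.32 for *Cd6*, 0.68 for *Blnk*, 0.51 for *Dpp4* and -0.39 for *Cd200r1*, and the *Cd6* share was 14.1, 27.3, 15.7, 33.2, 15.9 and 18.3%. With only the 1431 neurons that held none of the 7 stricter microglia markers, a choice made after seeing the data, the 384-well ratio of *Inpp5d* went from 0.52 to 0.01 and that of *P2rx7* from 0.22 to -0.03. Those of *Cd6* and *Dpp4* were 1.38 and 0.66, and that of *Blnk* went from 0.77 to 1.17.

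**Figure D5:**
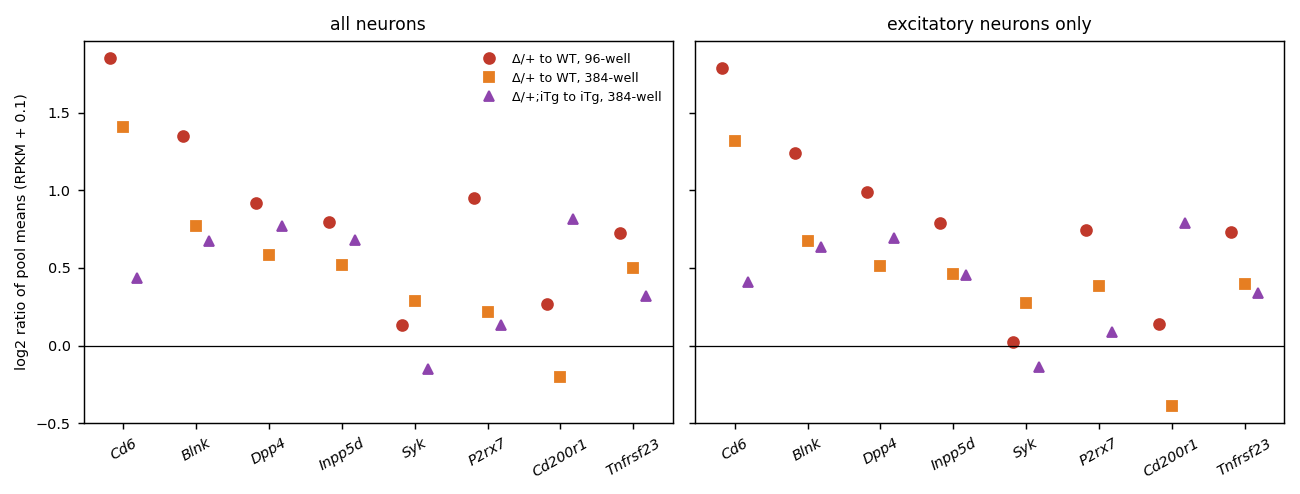
Log2 ratio of pool means (RPKM + 0.1) for the 8 genes in the 96-well pair and in both 384-well pairs that differ in the *Ehmt1* allele, in all neurons (left) and in excitatory neurons (right), 1 pool against 1 pool. In all neurons *Cd6* runs from 1.85 in the 96-well plates to 0.44 in Δ/+; iTg against iTg, and *Syk* stays between -0.15 and 0.28.

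Over the 4 pools of the 384-well plates together, limma with the *Ehmt1* allele and the transgene as terms called 0 of 31018 genes at an adjusted p of 0.05 for the allele. The log2 differences were 0.92 for *Cd6* (SE 0.34, adjusted p = 0.991), 0.72 for *Blnk* (SE 0.25) and 0.67 for *Dpp4* (SE 0.25), and ran from 0.07 for *Syk* to 0.60 for *Inpp5d* among the others. At an unadjusted p under 0.05, *Cd6*, *Blnk* and *Dpp4* were higher, as were 2.39% of all genes, and none of the 8 was lower, against 1.07%. The difference of *Cd6* was 0.44 without either the WT or the Δ/+ pool and 1.41 without either pool with Cre. With a mean-variance trend in limma, none of the 8 was higher or lower at that level, while 2.7% of genes were higher and 1.01% lower. In all, 5 genes (*Cd6*, *Blnk*, *Dpp4*, *P2rx7* and *Tnfrsf23*) had both Δ/+ pools above both +/+ pools, as had 22.7% of all genes. The fit has 1 residual degree of freedom, so a count of 0 calls says nothing about the genes.

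Pools labelled with and without the induced transgene were compared by the second term of that fit, which uses labels and not measured expression. By the genotype labels only the pools with the induced transgene carry CamKII-CreER, so driver and transgene cannot be told apart. No gene was called at an adjusted p of 0.05. *Inpp5d* was the only one of the 8 with an unadjusted p under 0.05, at a log2 difference of -0.71 (SE 0.25, adjusted p = 1.0), and 1.52% of all genes were lower at that level and 1.04% higher. The 7 stricter microglia markers summed to 0.292 and 1.17 RPKM in the neurons of WT and Δ/+ and to 0.0740 and 0.268 RPKM in those of iTg and Δ/+; iTg, and their part in the *Inpp5d* difference was not tested. In Δ/+; iTg against Δ/+ the log2 ratio was -0.74 for *Cd6*, -0.63 for *Inpp5d*, -0.06 for *P2rx7* and -0.03 for *Syk*, and 0.13 to 0.36 for *Tnfrsf23*, *Blnk*, *Dpp4* and *Cd200r1*. None of the 8 was 2-fold higher or lower, against 6.83% and 1.47% of genes, 4 were above 0, against 62.3%, and the median of all genes was 0.14. For iTg against WT, whose WT pool also serves the Δ/+ comparison, the ratios ran from -0.79 for *Inpp5d* and -0.65 for *Cd200r1* to 0.41 for *Syk*. None was 2-fold higher or lower, against 0.887% and 3.15% of genes, and 6 were above 0, against 35.2%.

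In microglia, where 6 of the 8 genes could be tested over 6 pools, none of 25352 genes was called by limma for the *Ehmt1* allele. At an unadjusted p under 0.05, 1.67% of genes were higher and 1.07% lower, and none of the 6 was among them. The log2 differences were 0.12 for *Blnk*, 0.04 for *Inpp5d*, -0.02 for *Syk* and -0.04 for *P2rx7*, against 1.45 (SE 0.75) for *Cd200r1* and 1.61 (SE 1.27) for *Tnfrsf23*, with adjusted p from 0.868 to 0.995. In oligodendrocytes *Dpp4* (1.54, SE 0.77) and *P2rx7* (0.38, SE 0.33) could be tested, and 0 of 23625 genes were called, while 2.01% were higher and 1.79% lower at an unadjusted p under 0.05, neither gene among them. With 2 residual degrees of freedom these counts of 0 say as little.

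The partners of the 8 genes were read in the same neurons, from 7 lists of 43 genes. For the *Ehmt1* allele 32 could be tested over the 384-well pools, 0 were called, 20 had a log2 difference above 0 (61.7% of all genes had), and the median was 0.12 (0.08 over all genes), so the partners as a list stood near all genes. *Cd5*, a T cell receptor next to *Cd6* in the genome (1.13, SE 0.31), and *P2rx1* (0.76, SE 0.26) had an unadjusted p under 0.05, a level at which 2.39% of all genes were higher. Between classes, 6 of the 32 were higher in excitatory neurons and 5 lower, shares near the 17.2% and 16.9% of all genes. Among the higher were *Cd200r4* (3.63), *Fap* (3.46), *P2rx6* (1.33), *Ada* (0.85) and *Dpp10* (0.31), and the lower were *Dok2* (-0.88), *Dpp6* (-0.87), *Alcam* (-0.67), *Inpp4b* (-0.55) and *Panx1* (-0.42).

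Of the ligands, *Alcam*, which binds CD6, was at 9.84 to 17.1 RPKM in neurons and *Cd200* at 4.65 to 13.6 RPKM, while *Cdcp1*, another ligand of CD6, was at 0.144 to 0.430 RPKM and *Tnfsf10*, which encodes TRAIL, at 0.0768 to 0.204 RPKM. Of the adaptors that recruit SYK, *Tyrobp* and *Fcer1g* reached at most 0.249 and 0.488 RPKM in the neurons of any pool, *Cd79b* was at 0, and *Cd79a* was at 0.331 to 0.545 RPKM and above 0 in 9.45 to 13.2% of neurons, near the share of *Syk*. *Btk* and *Vav1*, which act after SYK, reached at most 0.0634 and 0.0941 RPKM, but *Plcg2*, which also acts after it, was at 0.0951 to 0.727 RPKM. The kinase gene *Lyn* was at 0.998 to 1.86 RPKM, in 34.6 to 64.9% of neurons. *Fap*, the peptidase closest to DPP4 and encoded in the same region of chromosome 2, was at 1.53, 2.48, 0.684, 1.04, 0.679 and 1.05 RPKM in the neurons of the 6 pools, with a log2 difference of 0.55 (SE 0.24, adjusted p = 0.991) for the allele.

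For each gene, the genes most alike in level were taken by Pearson's r over 30 groups of nuclei and 27710 genes; the groups share pools and nuclei, and r is a description. *Cd200r1* was most like its copy and neighbour *Cd200r4* (r = 0.96), with which it may share reads, and *Cd200r4* was also higher with *Rorb* (2.81) and lower with *Foxp2* (-2.22). *Tnfrsf23* was most like the overlapping *E230032D23Rik* (0.91), *Dpp4* like *Khdrbs2* (0.92), *Blnk* like *1500035N22Rik* (0.91), *Syk* like *Nhsl2* (0.90) and *Cd6* like *Socs7* (0.88). The best matches were weaker for *Inpp5d* (*Pik3r6*, 0.73) and for *P2rx7* (0.67, a gene without a symbol, then *Heg1* at 0.66).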

How the data were processed

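Single-nucleus RamDA-seq of mouse cortex was analysed from the processed tables. Per the methods and the submitters' processing notes, the authors trimmed adapters, mapped reads to mm10 with HISAT2 2.0.4, removed poor nuclei, counted reads per gene with featureCounts of Subread 1.5.0 and named cell types from clusters and markers. The authors deposited RPKM values per nucleus in 1 table for each plate format. RPKM divides by gene length and library total, so low values rest on a few reads; reads with several matches had been divided. Group and cell type came from each nucleus's labels, and 0 columns were left unmapped.

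Members, gene lists and tests were chosen with earlier results of these data known, and the class and layer tests and the shorter microglia list with its ratios were added after seeing the data. All 8 members are named in every pool. Other named genes come from fixed lists of direct partners, from genome neighbours, from cell type markers and from the 3 genes most alike in level; a few of these are not reported here.

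A nucleus with a value above 0 counted as positive. Read totals per nucleus were recovered from the steps of the RPKM values. For thinned shares, neurons were reduced to 291080 reads (96-well) or 181912 reads (384-well), and shallower ones were left out. The authors tested nuclei by edgeR. As the tables are not counts and nuclei are not replicates, RPKM was averaged per pool, 0.1 was added before log2, which understates differences of low genes, and limma 3.58.1 (R 4.3.3, two-sided, Benjamini-Hochberg, threshold 0.05) was fitted over all genes above 0 in at least 2% of nuclei, counted without regard to group. Its p-values measure the spread between pools, which may be technical. On simulated data, with 50 changed genes at each size, the genotype fits called 0 even at a log2 difference of 4. The class test called 20% of them at a difference of 0.5, 40% at 1 and 86% at 2. The test by *Rorb* called 28%, 62% and 84% at these sizes. A gene left without a call by class or layer marker may therefore still differ. Alternatives were other added constants (0.01 and 1), a 10% filter, a mean-variance trend, mean log values, arcsine shares, 2 reads as the minimum, neurons without microglia markers, and each pool left out. Promoters were from RefSeq. Python 3.11.15, numpy 2.4.6, pandas 2.3.3, SciPy 1.17.1 and matplotlib 3.10.9 were used.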

Additional observations from a re-analysis of the deposited data

Results flagged for a closer look

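The log2 ratio of *Syk* in neurons was 0.28 for the pool labelled Δ/+ against WT and -0.15 for Δ/+; iTg against iTg, both in the 384-well plates, so the single pools moved in opposite directions. The ratio of 0.28 leans on 1 nucleus. The highest Δ/+ neuron was at 44.8 RPKM, against at most 17.5 RPKM in the other 384-well pools. The share of neurons with *Syk* was 10.8% in Δ/+ and 11.2% in WT. *Cd200r1* moved the other way, with -0.20 for Δ/+ against WT and 0.81 for Δ/+; iTg against iTg. Against WT, the Δ/+ ratio of *Cd200r1* was 0.27 in 96-well but -0.20 in 384-well neurons. With 1 pool per group, none of these differences was tested.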

How the results depend on the processing

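No paired analysis was possible because the numbers of nuclei within a group only name them and tie no nucleus of one group to one of another. The counts of genes called by the genotype fits stayed at 0 under every alternative run, and 6 of 8 genes kept a direction above 0 for the allele in neurons under all of them. *Syk* turned to -0.0044 with mean log values, to -0.011 with arcsine shares and to -0.15 without the 384-well WT or Δ/+ pool, and *Cd200r1* to -0.20 without either pool with Cre. For the transgene, *Cd200r1* turned to 0.017 and 0.0082 under the same settings, and *Tnfrsf23* to -0.024 with arcsine shares. In microglia *Blnk* turned to -0.0069 with arcsine shares, and with 1 pool left out the difference ran from -0.069 to 0.23 for *Blnk*, -0.049 to 0.13 for *Inpp5d*, -0.20 to 0.12 for *Syk* and -0.17 to 0.051 for *P2rx7*. Without any of 7 microglia markers that include *Csf1r* and *P2ry12*, most neurons (1367 of 1664) dropped out: 4 genes rather than 7 then had a larger share in Δ/+ than in WT of the 384-well plates, 2 rather than 1 were at least 2-fold higher there, 2 rather than 0 in Δ/+; iTg against iTg, and *Blnk* turned to -0.96 in the 96-well plates. Of the 384-well Δ/+ to WT ratios, 0 reached 2-fold with 1 added to RPKM and 2 with the shorter microglia list, an alternative chosen after seeing the data. The cause of these moves was not tested. Depth limits what glia of the 384-well plates can show, and most shares in neurons rest on a few reads per nucleus.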
